A study of Mus musculus with 6 samples.

Results

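The DNA replication genes described here are 48 genes of the machinery that copies the genome in S phase, chosen by gene symbol from a list that runs from the origin recognition complex to the enzymes of nucleotide supply. All 48 were found, each once, among the 15634 genes listed, and all 48 had enough counts to be tested. They were measured by RNA sequencing of total RNA in bone marrow-derived mesenchymal stem cells (MSCs, adherent stromal cells of the marrow) from C57BL/6J mice, all wild type. TNF-α, an inflammatory cytokine, had been added at 10 ng/mL for 24 h before collection in 3 libraries (TNF), and 3 libraries came from cells without it (Control). Whether the 3 libraries of a group stem from different animals or culture dishes is not in the labels. The p-values therefore reflect library-to-library spread alone, part of which may be technical.

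Before a cell can copy its DNA, the origin recognition complex (ORC) marks the origins, and Cdc6 and Cdt1 load the ring-shaped MCM2-7 helicase onto them. Cdc45 and the GINS complex then join the rings to form the active helicase, and DNA polymerases, the sliding clamp PCNA and its loader follow at the fork. Many of these genes are transcribed under E2F transcription factors as cells go from G1 into S phase, so their mRNA is high in dividing cultures and low in resting ones, while some subunits are made at all times.

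With TNF-α, 31 of the 48 replication genes were lower and 0 were higher by edgeR's quasi-likelihood test at an adjusted p under 0.05, adjusted over all 15547 genes tested. At an unadjusted p under 0.05, 35 were lower and 2 higher, and DESeq2 and limma-voom also called 31 lower and 0 higher. Across all genes tested 16.4% were called lower and 16.0% higher. Of these calls 49.4% were higher, and 38.5% when libraries were scaled by their totals, which left the members at 31 lower and 0 higher. The median log2 fold change of the 48 was -0.50, against -0.005 for all genes, and single members ranged from -1.41 (Rrm2) to 0.23 (Orc2). In 37 members the 3 TNF values lay below the 3 Control values without overlap, and in 2 (Orc2 and Orc5) they lay above. The same held for 24.7% and 24.0% of all genes tested. Rrm2, Cdc6, Tk1 and Pole were the 4 members whose fitted level fell furthest, by 62.4%, 56.8%, 53.9% and 51.9%.

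**Figure D1:**
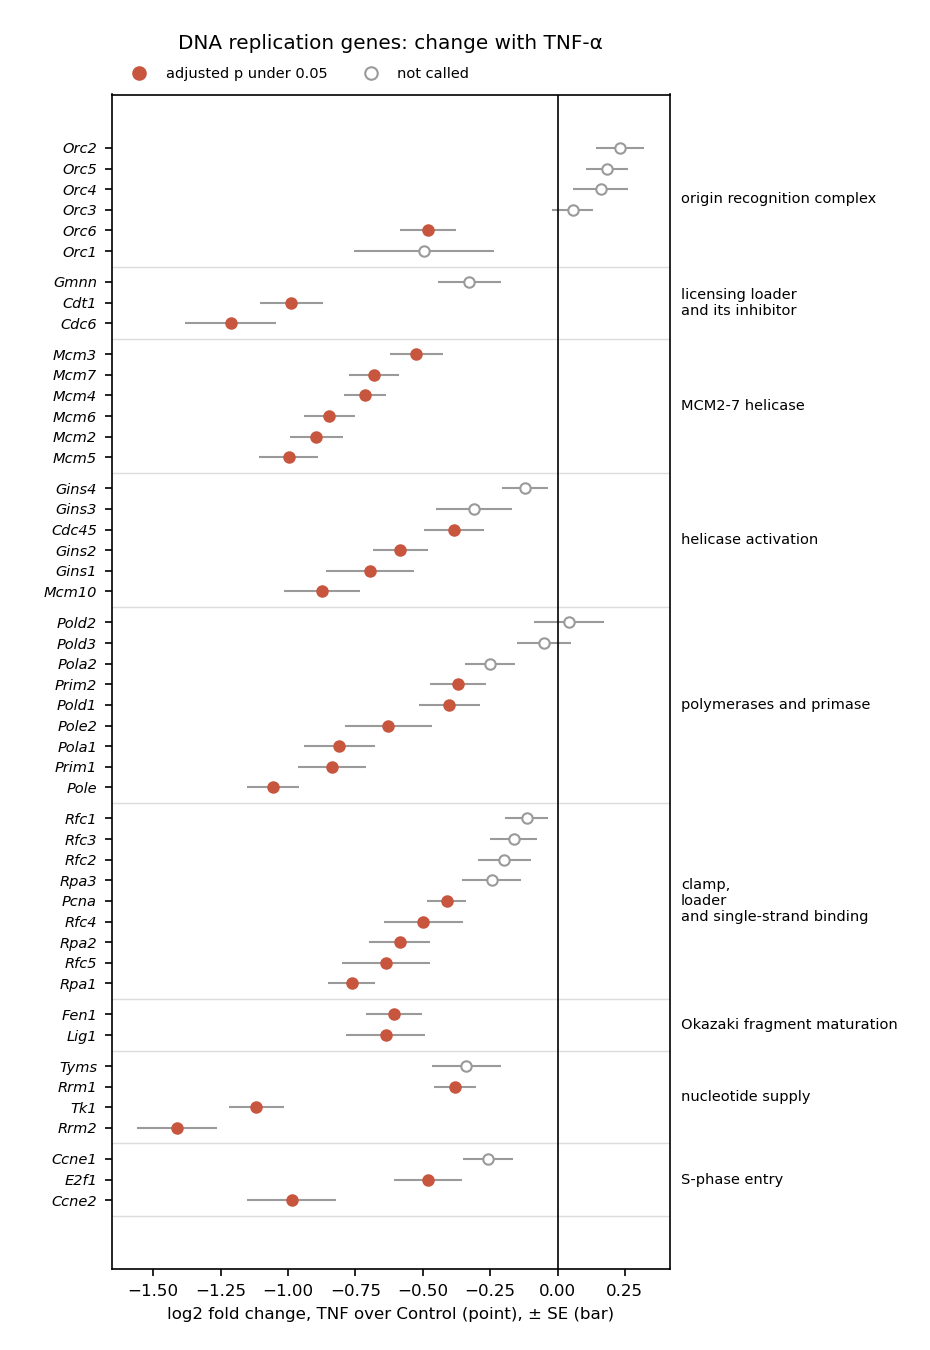
Log2 fold change (horizontal axis, TNF over Control) with its SE for each of the 48 genes, grouped by role. Filled points passed the test and all lie left of 0, between -1.41 for Rrm2 and -0.37 for Prim2, while 4 ORC genes and Pold2 lie to the right of 0 with open points.

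Library totals ran from 45629973 to 77142418 counts, and the 48 genes held 35124 to 95775 counts per library, or 0.0770% to 0.138% of the total. Orc1 was the sparsest member with 34 to 73 counts per library, so its precision is the lowest. TNF library 2 stood apart in that 19.4% of its counts were 18S ribosomal RNA, against 1.10% to 3.55% in the others. Control library 2 held 4.45% mitochondrial mRNA, against 1.59% to 2.16% elsewhere. Values below are CPM, depth-scaled counts with TMM factors, for libraries 1, 2 and 3 of each group in that order. Where TPM is named the values are also corrected for transcript length, so that genes can be compared. Relative to the Control mean, the median member stood at 0.01, -0.06 and 0.04 on the log2 scale in the 3 Control libraries and at -0.57, -0.57 and -0.40 in the 3 TNF libraries. TNF library 3 was thus the one nearest to Control. Without TNF library 2, 25 members were lower, and leaving out each library in turn gave 24 to 33 lower and 0 higher.

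**Figure D2:**
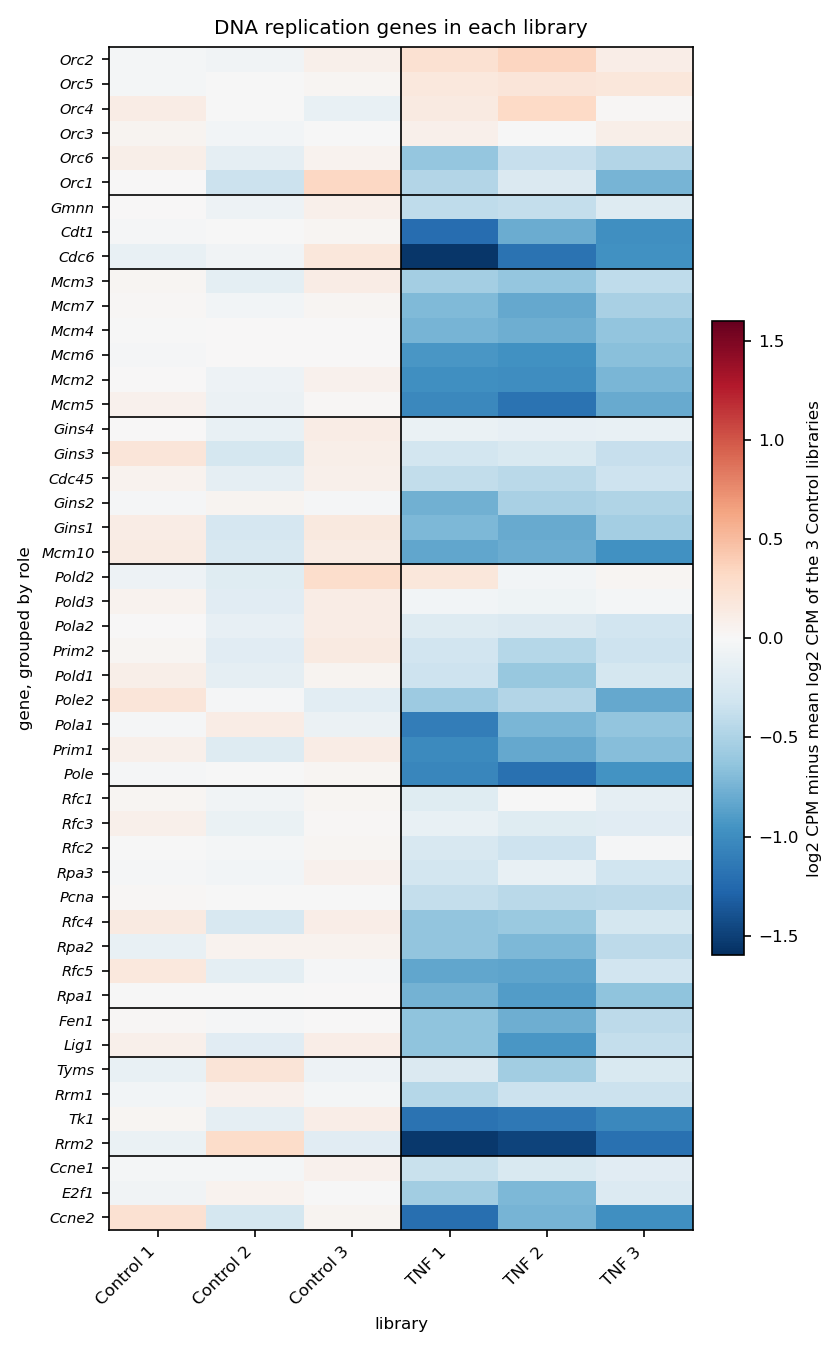
Log2 CPM of each gene (rows, grouped by role) in each library (columns), minus the mean of the 3 Control libraries. The TNF columns are blue for most rows, palest in TNF library 3, while the rows of Orc2, Orc3, Orc4 and Orc5 stay near white or turn light red.

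The cultures expressed stromal genes, with 13 of 13 stromal markers tested. Of these, 3 were lower (23.1%, against 16.4% of all genes) and 4 higher (against 16.0% of all genes). The smallest adjusted p-values of this list belonged to genes that rose, the adhesion molecule Vcam1 from 139 ± 3.95 to 1170.2 ± 91.6 CPM, the hyaluronan receptor Cd44 from 177 ± 7.01 to 428 ± 9.45 CPM and the growth factor receptor Pdgfra from 28.0 ± 3.32 to 57.2 ± 7.28 CPM (mean ± SD, n = 3, here and below). The collagen genes Col1a1 and Col1a2 fell from 8204 ± 1686 to 3938 ± 109 CPM and from 9647 ± 751 to 5865 ± 224 CPM, while Lepr, a receptor of perivascular marrow stroma, was near 0 in Control and rose from 0.475 ± 0.197 to 1.55 ± 0.330 CPM. Thy1, the remaining lower gene of the stromal list, went from 4.78 ± 1.35 to 2.51 ± 0.628 CPM (adjusted p = 0.018 by edgeR). All 15 macrophage and monocyte markers tested were also expressed. Their summed level was 2285 to 3452 CPM in Control and 2197 to 2315 CPM in TNF. Lyz2, not called, was the largest part of this sum, at 1334 ± 402 CPM in Control and 925 ± 72.8 CPM in TNF. In that list 3 were higher and 6 lower (40.0% lower, against 16.4% of all genes tested). Cx3cr1 fell from 25.3 ± 1.11 to 6.50 ± 1.12 CPM. Cybb rose from 82.2 ± 18.5 to 394 ± 44.8 CPM and Cd14 from 31.1 ± 2.89 to 68.0 ± 4.88 CPM. The remaining higher gene was Csf1r, from 251 ± 7.27 to 322 ± 23.5 CPM. The other lower genes were C1qa, C1qb, C1qc, Mrc1 and Cd68, which fell by 56.1%, 60.8%, 63.7%, 60.2% and 41.9%. Of granulocyte, lymphocyte and endothelial markers 1 each was tested (S100a8, called higher, Cd4, not called, and Kdr, called lower), all with a mean under 1 CPM in both groups, and 0 erythroid markers were. In bulk RNA, fewer cells of a type and less RNA per cell cannot be told apart, and neither can fewer dividing cells and less replication mRNA in each. The part of macrophages in the changes below was not tested.

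The origin recognition complex had the fewest called members, 1 of 6 (16.7%, near the 16.4% of all genes called lower). Its subunits bind origins, Orc1 to Orc5 forming an ATP-driven ring and Orc6 joining it, and only Orc6 passed the test. Orc6 had 16.9, 14.3 and 16.4 CPM in Control and 10.3, 12.3 and 11.5 CPM in TNF, all TNF values below all Control values (log2 fold change -0.48 ± 0.10 SE, adjusted p = 0.0078 by edgeR). The other 5 subunits were not called. Orc2 had 28.7, 28.1 and 30.9 CPM in Control and 34.6, 37.0 and 31.5 CPM in TNF, every TNF library above every Control library (log2 fold change 0.23 ± 0.09 SE, adjusted p = 0.0765 by edgeR). Orc5 likewise had 13.3, 13.5 and 13.8 CPM in Control and 15.2, 15.5 and 15.3 CPM in TNF, a narrow spread in both groups (adjusted p = 0.107 by edgeR). The groups of both thus lay in the opposite order to most members without reaching the threshold, and in TPM they overlapped for both. For Orc3, a core subunit, the values were 27.9, 26.2 and 26.9 CPM in Control and 28.5, 26.9 and 28.8 CPM in TNF, and for Orc4, another core subunit, 33.0, 30.3 and 27.9 CPM in Control and 33.5, 37.7 and 30.7 CPM in TNF. Both overlapped between groups, with log2 fold changes of 0.06 and 0.16, and that of Orc3 turned to -0.02 when library totals replaced TMM factors. Orc1, the subunit that comes and goes with the cell cycle in many cells, had 1.02, 0.807 and 1.28 CPM in Control and 0.736, 0.868 and 0.610 CPM in TNF. Its groups overlapped, and its log2 fold change of -0.50 ± 0.26 SE was as large as that of Orc6 but far less precise (adjusted p = 0.176 by edgeR).

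Of the licensing factors, both loaders fell. Cdc6, the ATPase that recruits the helicase to ORC, had 5.61, 5.86 and 6.96 CPM in Control and 2.09, 2.71 and 3.14 CPM in TNF (log2 fold change -1.21 ± 0.17 SE, adjusted p = 0.000705 by edgeR). Every TNF value lay far below the lowest Control value. Cdt1, which brings the MCM ring to the origin, had 11.9, 11.97 and 12.3 CPM in Control and 5.19, 6.97 and 6.14 CPM in TNF (log2 fold change -0.99 ± 0.12 SE, adjusted p = 0.000285 by edgeR). Its Control values were nearly identical, and TNF library 1 was the lowest. Geminin (Gmnn), the protein that binds and inhibits Cdt1, had 4.57, 4.33 and 4.82 CPM in Control and 3.44, 3.50 and 3.96 CPM in TNF, with no overlap but without passing the test (log2 fold change -0.33 ± 0.12 SE, adjusted p = 0.062 by edgeR). Per length, the ratio of Cdt1 to Gmnn transcripts was 0.818 ± 0.0304 in Control and 0.521 ± 0.0836 in TNF (TPM ratio, SD, n = 3), with no overlap between groups. This ratio was chosen after the values were seen and was not tested.

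All 6 genes of the MCM2-7 helicase fell, by 30.5% (Mcm3) to 49.9% (Mcm5). The hexamer unwinds DNA ahead of the fork and needs each of its subunits. Mcm2 had 41.2, 38.5 and 43.0 CPM in Control and 20.7, 20.6 and 24.7 CPM in TNF (log2 fold change -0.90 ± 0.10 SE, adjusted p = 0.000178 by edgeR), and Mcm5 had 42.6, 38.0 and 40.9 CPM in Control and 19.7, 17.9 and 23.2 CPM in TNF (log2 fold change -0.998 ± 0.11 SE, adjusted p = 0.000182 by edgeR). Mcm4 had 32.3, 32.4 and 32.4 CPM in Control and 19.4, 18.8 and 20.9 CPM in TNF, the tightest Control values of the family (log2 fold change -0.71 ± 0.08 SE, adjusted p = 0.000187 by edgeR). In all 3 the TNF libraries lay well below the Control libraries, TNF library 3 being the highest of the 3. Mcm6 fell from 65.8 ± 0.596 to 36.6 ± 4.29 CPM, Mcm7 from 53.7 ± 1.64 to 33.5 ± 3.59 CPM and Mcm3 from 36.5 ± 3.42 to 25.4 ± 1.89 CPM (mean ± SD, n = 3), and all 6 were called in every repeat without 1 library.

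Per length, the MCM genes were not at equal levels, and the order was similar in both groups. Mcm7 was at 43.0 ± 4.24 TPM in Control and 25.2 ± 4.09 TPM in TNF, Mcm6 at 40.3 ± 2.66 TPM in Control and 21.3 ± 3.73 TPM in TNF, and Mcm4, the lowest of the family, at 16.0 ± 1.20 TPM in Control and 9.43 ± 0.814 TPM in TNF. The highest MCM gene exceeded the lowest by 2.68 ± 0.101 fold in Control and 2.71 ± 0.206 fold in TNF (SD, n = 3), so the groups overlapped in this spread. Neighbours in the order such as Mcm2, Mcm3 and Mcm5, at 21.6, 21.6 and 21.4 TPM in Control, did not differ beyond their spread. The mean over Mcm2 to Mcm7 was 27.3 ± 2.73 TPM in Control and 15.2 ± 2.37 TPM in TNF, while that over Orc2 to Orc5 was 22.9 ± 2.34 and 24.0 ± 1.03 TPM. The ratio of these means was 1.15, 1.14 and 1.30 in the Control libraries and 0.607, 0.562 and 0.739 in the TNF libraries, which do not overlap. The mean of the helicase genes was thus above the mean of those ORC genes in every Control library and below it in every TNF library, although single genes crossed this order. The comparison was chosen after the values were seen and was not tested.

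**Figure D3:**
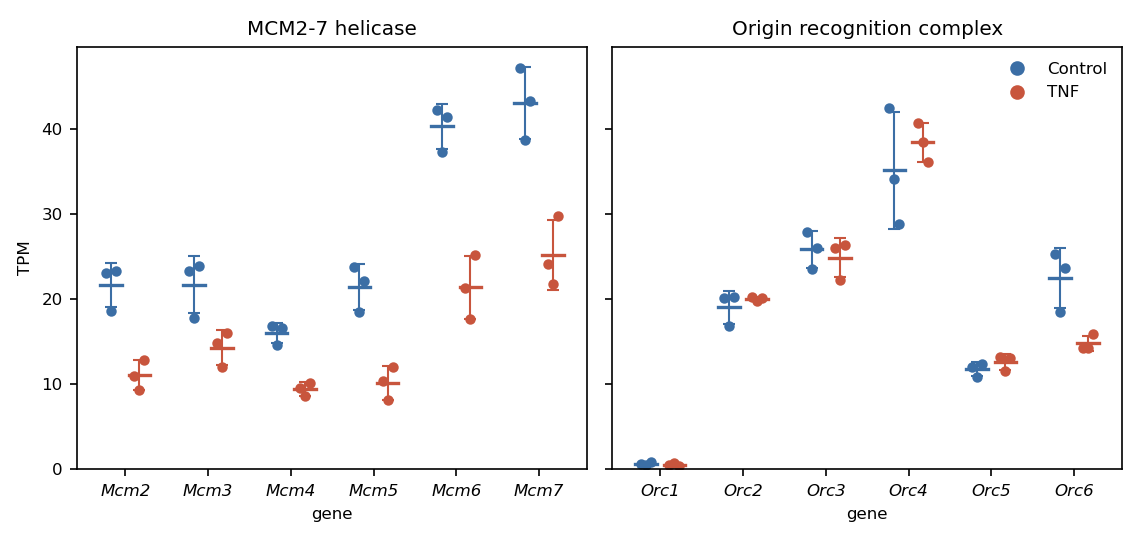
TPM (vertical axis) of the 6 MCM2-7 genes (left) and the 6 ORC genes (right) in 3 Control (blue) and 3 TNF (red) libraries, with the mean as a short line and the SD as an error bar. The groups separate for each MCM gene and for Orc6 and overlap for Orc1 to Orc5.

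E2F factors, the transcription factors of S-phase entry, bind a short GC-rich site, and the promoters of several members carry such letters. RefSeq promoter windows of 300 bases (250 before to 50 after the gene's start, build GRCm38.p6) were found for 39 of the 48 genes. The E2F words TTTCCCGC, TTTCGCGC, TTTGCCGC and TTTGGCGC were searched on both strands, overlapping matches included, and a gene with several windows (6 members) was counted once. Of these 39 genes 15 held at least 1 match, or 38.5%, against 4.44% of 11355 tested genes with a window and 2.60% of all 27025 genes with a window. Among members the share was 10 of 25 for those called lower and 5 of 14 for those not called. The word CCAAT, the site of NF-Y, was in 23 of the 39 (59.0%), against 43.0% of tested genes. A match is a description of the letters and does not show that a factor binds there.

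The 250 bases before the start are printed 5′ to 3′ for 3 genes that fell and 2 that were not called, to show matches on both sides of the test. The 3 that fell were all picked from the 10 of 25 called members that held a match. Capitals mark the matches to the E2F words, and overlapping matches run together. Cdc6 lies at chr11:98907901-98908150 (+ strand), Mcm5 at chr8:75109259-75109508 (+), Mcm6 at chr1:128359706-128359955 (-), Rfc3 at chr5:151651209-151651458 (-) and Orc5 at chr5:22550339-22550588 (-), all in GRCm38.p6, while the counts were made on GRCm39.
Cdc6: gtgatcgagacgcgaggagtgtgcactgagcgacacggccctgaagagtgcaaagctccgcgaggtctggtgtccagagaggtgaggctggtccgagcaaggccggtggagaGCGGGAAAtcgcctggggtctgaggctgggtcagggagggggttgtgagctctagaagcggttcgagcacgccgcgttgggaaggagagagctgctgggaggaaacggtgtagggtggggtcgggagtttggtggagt
Mcm5: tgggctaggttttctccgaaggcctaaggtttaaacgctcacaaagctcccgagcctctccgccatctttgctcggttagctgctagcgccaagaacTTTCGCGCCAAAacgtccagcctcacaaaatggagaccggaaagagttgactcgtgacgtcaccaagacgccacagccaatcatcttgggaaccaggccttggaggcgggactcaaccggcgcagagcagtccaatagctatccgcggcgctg
Mcm6: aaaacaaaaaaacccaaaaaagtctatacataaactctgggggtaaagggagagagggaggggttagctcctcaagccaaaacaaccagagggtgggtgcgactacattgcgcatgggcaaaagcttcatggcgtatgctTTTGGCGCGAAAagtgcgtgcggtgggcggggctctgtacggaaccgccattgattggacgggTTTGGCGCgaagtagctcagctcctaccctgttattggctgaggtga
Rfc3: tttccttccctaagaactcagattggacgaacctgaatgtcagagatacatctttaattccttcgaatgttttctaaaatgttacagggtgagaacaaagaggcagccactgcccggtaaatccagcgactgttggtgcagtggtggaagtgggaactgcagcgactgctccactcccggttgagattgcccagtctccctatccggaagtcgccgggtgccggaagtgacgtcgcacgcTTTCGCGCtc
Orc5: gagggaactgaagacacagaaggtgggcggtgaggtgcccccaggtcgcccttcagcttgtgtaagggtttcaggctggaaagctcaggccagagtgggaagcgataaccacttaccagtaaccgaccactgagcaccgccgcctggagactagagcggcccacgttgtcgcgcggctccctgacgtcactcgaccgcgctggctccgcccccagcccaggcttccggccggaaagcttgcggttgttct
In Mcm5 a match on each strand overlaps to form a run of 12 capitals that starts 153 bases before the gene's start. Mcm6 holds such a run 110 bases before the start and another match 47 bases before it. Rfc3, which was not called, has a match 10 bases before the start, and Orc5 has none of these words in the stretch shown.

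Of the 6 genes that switch the loaded ring on, 4 fell. Mcm10, a scaffold needed to start unwinding, had 6.01, 4.62 and 6.01 CPM in Control and 3.10, 3.17 and 2.81 CPM in TNF (log2 fold change -0.87 ± 0.14 SE, adjusted p = 0.0017 by edgeR). Gins2, of the GINS complex, had 10.9, 11.4 and 10.9 CPM in Control and 6.53, 7.74 and 7.92 CPM in TNF (log2 fold change -0.58 ± 0.10 SE, adjusted p = 0.00253 by edgeR), and its partner Gins1 had 3.595, 2.75 and 3.69 CPM in Control and 2.01, 1.89 and 2.27 CPM in TNF (log2 fold change -0.69 ± 0.16 SE, adjusted p = 0.0117 by edgeR). In all 3 the groups lay apart. Cdc45, which bridges GINS and the MCM ring, fell from 5.57 ± 0.459 to 4.26 ± 0.151 CPM, a smaller change called only with all libraries or without Control library 2 (adjusted p = 0.0291 by edgeR, up to 0.0958 in the other repeats). Gins3 had 6.43, 4.64 and 5.99 CPM in Control and 4.62, 4.78 and 4.36 CPM in TNF, overlapping through the low value of Control library 2, and was called when that library was left out (adjusted p = 0.126 by edgeR with it and 0.0189 without). Gins4, the most abundant GINS gene per length at 43.4 ± 5.96 TPM in Control and 37.7 ± 3.50 TPM in TNF, had 29.5, 27.1 and 31.9 CPM in Control and 27.4, 26.8 and 27.1 CPM in TNF and was not called (adjusted p = 0.305 by edgeR). The 4 subunits of this complex therefore spanned log2 fold changes of -0.69 to -0.12.

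Of the 9 polymerase and primase genes 6 fell. Pole, the catalytic subunit of the leading-strand polymerase epsilon, had 12.9, 12.98 and 13.3 CPM in Control and 6.35, 5.72 and 6.75 CPM in TNF (log2 fold change -1.06 ± 0.09 SE, adjusted p = 5.8e-05 by edgeR). In TPM its values were 3.63, 2.86 and 3.54 in Control and 3.12, 1.68 and 1.59 in TNF, so TNF library 1 reached into the Control range on that scale. Limma on log2(TPM + 1) gave adjusted p = 0.0748. Its partner Pole2 fell from 2.96 ± 0.375 to 1.92 ± 0.227 CPM (adjusted p = 0.0177 by edgeR, up to 0.0701 without Control 1, TNF 1 or TNF 3). Prim1, the catalytic subunit of primase, which lays down the RNA primer, had 15.5, 12.7 and 15.8 CPM in Control and 7.20, 8.30 and 9.08 CPM in TNF (log2 fold change -0.84 ± 0.13 SE, adjusted p = 0.00111 by edgeR). Pola1, the polymerase alpha subunit that extends the primer, had 15.0, 16.5 and 14.3 CPM in Control and 7.06, 9.22 and 9.89 CPM in TNF (log2 fold change -0.81 ± 0.13 SE, adjusted p = 0.00183 by edgeR). Both showed TNF library 1 as the lowest and no overlap. Of their accessory subunits, Prim2 fell from 19.1 ± 2.13 to 14.8 ± 0.817 CPM and Pola2, not called, had 15.6, 14.1 and 16.8 CPM in Control and 13.4, 13.1 and 12.5 CPM in TNF. Prim2 was not called in 5 of the 6 repeats without 1 library (adjusted p up to 0.0949 by edgeR), and Pola2 was called without Control library 2 (0.0703 with it and 0.0247 without).

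In polymerase delta, which copies the lagging strand, 1 of the 3 genes on the list was called. Pold1, the catalytic subunit, fell from 15.8 ± 1.37 to 11.96 ± 1.38 CPM (adjusted p = 0.0266 by edgeR), a call lost in 4 of the 6 repeats without 1 library, those lacking TNF 1, TNF 2, Control 1 or Control 3 (largest adjusted p = 0.0965). Pold2, its structural partner, had 41.2, 38.1 and 53.1 CPM in Control and 49.6, 42.4 and 44.5 CPM in TNF, with groups that overlapped and a log2 fold change of 0.04 that became -0.04 with library totals and -0.05 without Control library 2. Pold3, which ties the enzyme to PCNA, had 13.7, 11.7 and 14.4 CPM in Control and 12.8, 12.6 and 12.9 CPM in TNF (log2 fold change -0.05, 0.02 without Control library 3). Both were not called, and the differences between these subunits were not tested. Per length Pold2 was nonetheless among the most abundant members, at 59.9 ± 15.3 TPM in Control and 75.01 ± 13.4 TPM in TNF. The summed TPM of the polymerase and primase genes, of which Pold2 is the largest part, overlapped between groups. It was 116 to 161 TPM in Control and 113 to 148 TPM in TNF. Pold2 weighs heavily in this sum, and in CPM 7 of the 9 genes lay lower in TNF without overlap, against 24.7% of all genes tested. Among these 7, Pole and Pola2 overlapped between groups in TPM.

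At the fork, Pcna, the gene of the ring that holds polymerases on DNA, was the most abundant member per length in both groups, at 151 ± 12.1 TPM in Control and 108 ± 9.89 TPM in TNF. In CPM it had 119, 117 and 117 CPM in Control and 90.3, 87.6 and 88.0 CPM in TNF, with a small spread in either group (log2 fold change -0.41 ± 0.07 SE, adjusted p = 0.00249 by edgeR). It thus fell by 24.8%, little in proportion but far beyond the spread. Rpa1, the large subunit of the protein that coats single-stranded DNA, had 122, 122 and 123 CPM in Control and 72.1, 65.4 and 78.1 CPM in TNF (log2 fold change -0.76 ± 0.09 SE, adjusted p = 0.000226 by edgeR), and Rpa2, the middle subunit, had 8.45, 9.50 and 9.53 CPM in Control and 5.91, 5.54 and 6.82 CPM in TNF (log2 fold change -0.59 ± 0.11 SE, adjusted p = 0.00411 by edgeR). The small subunit Rpa3 had 5.11, 5.05 and 5.43 CPM in Control and 4.24, 4.78 and 4.17 CPM in TNF, without overlap but not called (adjusted p = 0.122 by edgeR).

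In the clamp loader RFC 2 of 5 subunits were called. Rfc1, its large subunit, had 50.02, 46.9 and 49.98 CPM in Control and 42.8, 48.6 and 44.3 CPM in TNF, and Rfc2 had 24.2, 23.8 and 24.7 CPM in Control and 20.2, 19.3 and 23.8 CPM in TNF, with overlap between groups in both. Rfc3 had 13.2, 11.6 and 12.7 CPM in Control and 11.5, 10.9 and 11.1 CPM in TNF, close together but without overlap, and none of the 3 was called (adjusted p = 0.307, 0.157 and 0.188 by edgeR). Without TNF library 3, Rfc2 was called with adjusted p = 0.0457. Rfc4 fell from 7.33 ± 1.06 to 5.17 ± 0.701 CPM and Rfc5 from 9.60 ± 1.10 to 6.15 ± 1.40 CPM (adjusted p = 0.0312 and 0.0179 by edgeR). Rfc4 kept its call only without Control 2 or TNF 3, and Rfc5 lost it without Control 1, TNF 1 or TNF 2 (largest adjusted p = 0.118 and 0.0771).

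Both genes of Okazaki fragment maturation fell. Fen1, the nuclease that trims the RNA-primed flap, had 20.7, 20.3 and 20.6 CPM in Control and 13.1, 11.9 and 15.3 CPM in TNF (log2 fold change -0.61 ± 0.11 SE, adjusted p = 0.00247 by edgeR). Lig1, the ligase that seals the nick, had 29.6, 24.6 and 30.1 CPM in Control and 17.9, 14.7 and 21.5 CPM in TNF (log2 fold change -0.64 ± 0.15 SE, adjusted p = 0.0104 by edgeR). The TNF values lay below the Control values in both, with TNF library 2 lowest.

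Among the genes of nucleotide supply, Rrm2 had the largest fall of the whole list. It encodes the small subunit of ribonucleotide reductase, the enzyme that makes deoxynucleotides, and had 58.6, 77.6 and 55.7 CPM in Control and 21.7, 22.7 and 27.6 CPM in TNF (log2 fold change -1.41 ± 0.15 SE, adjusted p = 0.00014 by edgeR). Control library 2 was the highest, and the highest TNF value, in library 3, was still far below the lowest Control value. The large subunit Rrm1 had 106, 114 and 107 CPM in Control and 78.8, 85.8 and 85.8 CPM in TNF (log2 fold change -0.38 ± 0.08 SE, adjusted p = 0.00631 by edgeR), a fall of 23.1% against 62.4% for Rrm2. Per length, Rrm2 exceeded Rrm1 in each Control library (TPM ratio 1.11, 1.33 and 1.02) and lay below it in each TNF library (0.542, 0.520 and 0.630). Among the 48 genes ordered by TPM, Rrm2 went from rank 4 in Control to rank 12 in TNF and Rrm1 from rank 5 to rank 6. The ratio too was chosen after the values were seen. Tk1, the thymidine kinase of the salvage pathway, had 14.1, 12.4 and 14.8 CPM in Control and 6.09, 6.21 and 6.75 CPM in TNF, groups far apart with small spread (log2 fold change -1.12 ± 0.10 SE, adjusted p = 6.44e-05 by edgeR). Tyms, which makes thymidylate de novo, had 12.9, 16.2 and 13.2 CPM in Control and 12.02, 9.58 and 11.9 CPM in TNF, without overlap but not called (adjusted p = 0.0748 by edgeR).

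Of the genes that drive entry into S phase, 2 of 3 fell. Ccne2 had 9.98, 6.97 and 8.70 CPM in Control and 3.66, 5.03 and 4.27 CPM in TNF (log2 fold change -0.99 ± 0.17 SE, adjusted p = 0.00207 by edgeR). Ccne1 had 9.53, 9.57 and 10.2 CPM in Control and 7.62, 8.22 and 8.63 CPM in TNF, a smaller and uncalled difference without overlap (adjusted p = 0.0626 by edgeR). The transcription factor E2f1 had 41.2, 44.6 and 42.5 CPM in Control and 29.0, 26.0 and 36.9 CPM in TNF, TNF library 3 being nearest to Control (log2 fold change -0.48 ± 0.13 SE, adjusted p = 0.0188 by edgeR). Its call was lost without TNF 1 or TNF 2 (adjusted p = 0.0846 and 0.0524). Whether Ccne1 and Ccne2 responded differently was not tested.

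Other genes around this machinery were taken from lists drawn up by function. Across all genes tested 16.4% were called lower and 16.0% higher, and some of the shorter lists below lie near these shares. Of 30 further replication genes 9 were lower and 1 higher, with a median log2 fold change of -0.25. Clspn, which relays fork stress to the checkpoint, fell from 7.07 ± 0.855 to 3.09 ± 0.327 CPM, Wdhd1, which couples the helicase to polymerase alpha, from 6.26 ± 0.698 to 3.33 ± 0.383 CPM, and Ticrr, needed for origin firing, from 2.62 ± 0.121 to 1.37 ± 0.201 CPM. The kinase genes Cdc7 and Dbf4, whose products trigger firing, had log2 fold changes of -0.30 and -0.10 and were not called (adjusted p = 0.25 and 0.564 by edgeR). The gene called higher was Donson (0.44). This call was lost with library totals (adjusted p = 0.112 by edgeR) and with the replicate number as a block (0.0516). It was also lost without Control 1, TNF 2 or TNF 3 (up to 0.0642). Limma on log2 TPM did not call Donson either (adjusted p = 0.128 to 0.148). The lower count was 5 without TNF library 1.

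Of 9 genes of chromatin assembly and maintenance methylation, 7 were lower and 0 higher (median -0.60). Uhrf1, which guides DNA methylation to new strands, fell from 26.5 ± 2.61 to 13.5 ± 1.996 CPM, Slbp, which binds histone mRNA, from 21.6 ± 0.324 to 14.9 ± 0.652 CPM, and Hells from 14.4 ± 1.45 to 8.68 ± 0.526 CPM. Chaf1a, of the chromatin assembly factor behind the fork, fell from 31.7 ± 4.38 to 23.7 ± 1.93 CPM, a call lost when TNF 1, TNF 2, Control 1 or Control 3 was left out (largest adjusted p = 0.0854 by edgeR). Replication-dependent histone genes, transcribed mainly in S phase, were lower in 9 of 36 tested and higher in 0, with a median of -0.33, with H1f2 falling from 97.5 ± 19.9 to 60.3 ± 3.46 CPM, H2bc6 from 7.61 ± 1.06 to 4.87 ± 0.736 CPM and H3c4 from 1.15 ± 0.0697 to 0.637 ± 0.115 CPM. The call of H3c4 was lost without Control 3 or TNF 3 (adjusted p = 0.0587 and 0.0569 by edgeR) and with the replicate number as a block (0.0646). The count of lower histone genes dropped to 2 without Control library 3, 4 without TNF library 2 and 5 without Control 2, TNF 1 or TNF 3. It was also 2 with the replicate number as a block, 1 at an adjusted p under 0.01 and 5 with 1.5-fold required. With library totals 10 histone genes were lower, and by limma on log2(TPM + 1) 12 histone genes were. Many of these genes are near-identical copies among which reads can be split, and 16 of the 36 had a mean of at least 1 CPM in Control. Of these 16, 8 were lower. A filter on the Control level favours genes that fall, so no conclusion is drawn from that share.

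Genes of nucleotide metabolism outside the list went both ways, 4 lower and 3 higher of 13. Ctps, the enzyme that makes CTP, rose from 59.4 ± 1.14 to 127 ± 6.31 CPM, Samhd1, which breaks down deoxynucleotides, from 151 ± 4.40 to 206 ± 7.98 CPM, and Shmt1, of folate metabolism, from 2.10 ± 0.176 to 3.28 ± 0.217 CPM. Among the lower genes were Dtymk, from 23.2 ± 1.77 to 17.5 ± 1.79 CPM, and Dut, from 12.7 ± 0.986 to 9.96 ± 1.12 CPM. Their adjusted p-values were 0.0172 and 0.0424 by edgeR. The lower count was 1 without Control 3, TNF 1 or TNF 2, and Samhd1 was not called with library totals (adjusted p = 0.0863 by edgeR). By limma on log2 TPM the higher count was 1.

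Among E2F, DP and pocket protein genes 5 of 12 were lower and 2 higher. The repressors E2f7 and E2f8 fell from 5.28 ± 0.333 to 1.67 ± 0.141 CPM and from 2.56 ± 0.0883 to 1.49 ± 0.0609 CPM, and the partner gene Tfdp2 from 21.9 ± 2.503 to 14.3 ± 1.12 CPM, while Rb1, the retinoblastoma protein that restrains E2F, had a log2 fold change of -0.10 and was not called (adjusted p = 0.486 by edgeR). The 2 higher genes were E2f3 and E2f4 (0.37 each). Their count was 0 with library totals, by limma on log2 TPM and with the replicate number as a block. It was also 0 without TNF 1 or TNF 3, and 1 without Control 1, Control 2 or TNF 2. Of 8 G1 and S cyclin, kinase and phosphatase genes 2 were lower and 1 higher. Ccna2, the cyclin of S phase, fell from 28.2 ± 1.71 to 14.3 ± 0.477 CPM and its kinase Cdk2 from 10.5 ± 1.99 to 5.77 ± 1.09 CPM, whereas Cdk6, a G1 kinase, rose from 63.4 ± 3.07 to 108 ± 11.3 CPM. Ccnd1, a G1 cyclin, had 221, 135 and 148 CPM in Control and 101, 164 and 144 CPM in TNF, overlapping groups (adjusted p = 0.327 by edgeR).

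CDK inhibitors went both ways. Cdkn1a (p21), which blocks cyclin-CDK complexes and binds PCNA, had 432, 355 and 443 CPM in Control and 637, 634 and 525 CPM in TNF (log2 fold change 0.55 ± 0.13 SE, adjusted p = 0.0122 by edgeR). This call was lost with library totals (adjusted p = 0.0789 by edgeR), without TNF library 1 (0.0610) and by limma on log2 TPM. Cdkn2c fell from 20.7 ± 2.67 to 8.38 ± 0.679 CPM, Cdkn1c from 2.998 ± 0.190 to 0.952 ± 0.175 CPM and Cdkn1b (p27) from 32.0 ± 2.997 to 18.5 ± 2.51 CPM, so 3 of 7 were lower and 1 higher, and 2 were higher without TNF library 3. Of 8 genes that control the destruction of licensing factors 2 were lower and 0 higher, Dtl, which marks Cdt1 for destruction in S phase, falling from 11.6 ± 0.270 to 4.90 ± 0.366 CPM and Fbxo5, an inhibitor of the anaphase-promoting complex, from 10.3 ± 2.64 to 5.44 ± 0.718 CPM.

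Mitosis genes, which act after replication is complete, were lower in 33 of 35 and higher in 1, with a median of -0.84 against -0.50 for the replication genes. Mki67, the proliferation marker, fell from 43.0 ± 2.53 to 23.9 ± 2.08 CPM, Top2a, which untangles sister chromatids, from 52.8 ± 2.16 to 30.2 ± 1.41 CPM, Cdk1, the mitotic kinase, from 31.7 ± 1.77 to 21.2 ± 1.59 CPM, and Cenpf, Anln and Kif20a by 52.5%, 47.9% and 48%. Quartiles of the log2 fold change were -0.95 and -0.65 for mitosis genes and -0.78 and -0.26 for replication genes, so the replication list spread more widely toward 0. Pttg1, the securin gene, was the higher one (0.39). It was not called with library totals, by limma on log2 TPM or without Control 1 or TNF 1. Cenpe was not called (-0.42, adjusted p = 0.0818 by edgeR). Cenpe was called lower without Control library 2 (-0.59, adjusted p = 0.00245), with library totals (0.0328) and by DESeq2 (0.0482). Summed over the mitosis list, the level was 613 to 690 CPM in Control and 387 to 403 CPM in TNF. Over the 48 replication genes it was 1267 to 1312 and 897 to 970 CPM. The groups were apart on both sums. The difference between the lists was not tested, and genes of a list are not replicates.

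**Figure D4:**
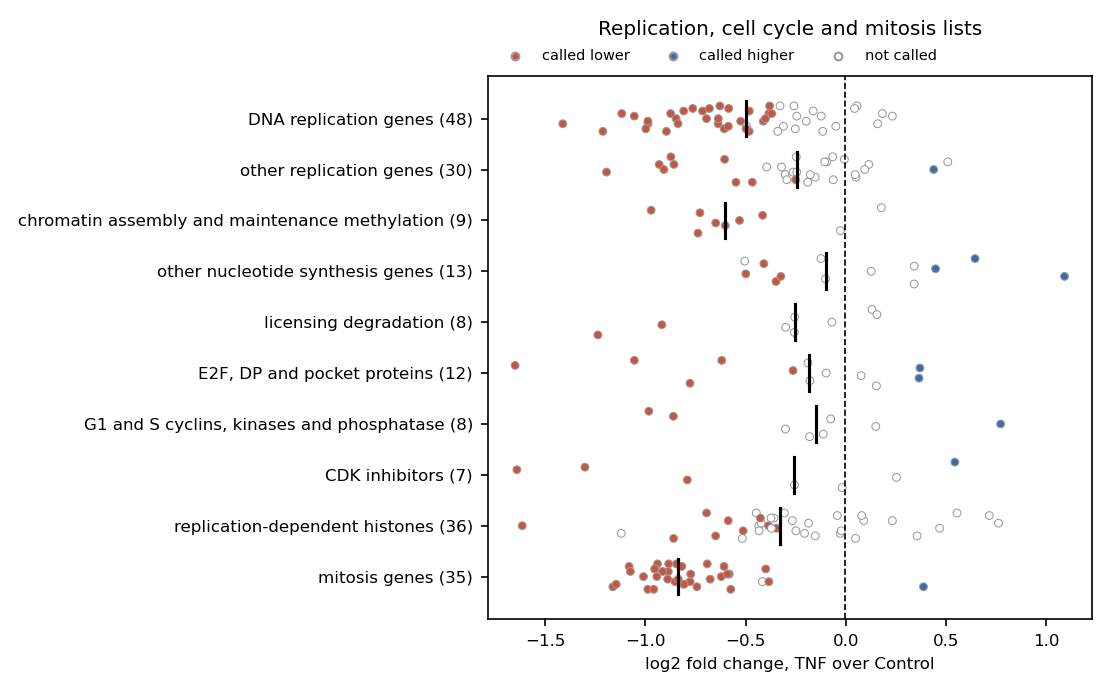
Log2 fold change (horizontal axis) of each tested gene in the replication list and in 9 other lists, with the number of genes in brackets, the list median as a black bar and the median of all genes as a dashed line. Replication genes spread from -1.41 to 0.23 around a median of -0.50, and mitosis genes gather around -0.84.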

How the data were processed

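Per the submitters' processing notes the reads went through Trim Galore, STAR, StringTie and Salmon on build GRCm39; versions and settings are not given in the sources used here. The authors deposited expected counts per gene as whole numbers, with a title line that calls them normalized and a column name that calls them raw. Totals differ between libraries, so no depth scaling is visible and they were used as counts. The deposited TPM files carry the gene symbols, and count lines were paired with them by position (the 260 zeros coincide; median SD of log2(count/TPM) over libraries 0.0276, against 0.421 with lines moved by 1). All listed genes have at least 10 counts in at least 3 libraries.

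The main test used edgeR 4.0.16 (R 4.3.3) after filterByExpr, with TMM factors (glmQLFit, glmQLFTest, group as the only term, two-sided, Benjamini-Hochberg over all genes tested, called under 0.05). The SE is the absolute log2 fold change divided by the square root of F. The procedure was also run on simulated counts in which far fewer genes changed than were called here, up and down in equal number. That run therefore cannot show how the scaling behaves when many genes change. Alternatives were other scalings, DESeq2 1.42.0, limma 3.58.1 (voom, and log2 TPM with a pseudocount of 1 or 0.1), filters, thresholds, a replicate block and leaving out libraries. Members, lists and tests were chosen with earlier results of these data known. Library values are given for up to 3 members per role with the smallest adjusted p and for each uncalled member; from other lists, the 3 called genes with the smallest adjusted p and a set of 16 genes are named, except 1 gene that is not reported here. Col1a1, Col1a2, Lepr, Cd4, Donson, E2f3, E2f4, Pttg1, Cenpe and the ratios were singled out after their values were seen. The same holds for Lyz2, Csf1r, C1qa, C1qb, C1qc, Mrc1, Cd68, Thy1, Dtymk and Dut.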

Additional observations from a re-analysis of the deposited data

How the results depend on the processing

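Of the 31 members called lower, all 31 kept their direction under the 21 alternatives. The stricter thresholds among these reuse the main fit, so direction could not change under them. Of the 31, 24 were called in each of the 6 repeats without 1 library, and 16 were called under all alternatives. Leaving out 1 library gave 24 to 33 members lower, 0 higher and a median of -0.56 to -0.45. Over all genes these repeats gave 1728 to 2382 lower and 1721 to 2413 higher. Leaving out Control 2 and TNF 2 together gave 33 members lower, and an adjusted p under 0.01 gave 22. Requiring 1.5-fold gave 21, and limma on log2 TPM gave 25 or 26. With library totals the members' median was -0.585, the median of all genes was -0.087 and 1612 genes were higher, so 38.5% of calls were higher against 49.4% with TMM. The counts of all genes higher were 1477 for log2(TPM + 1), 1470 for log2(TPM + 0.1) and 1317 with a mean TPM of at least 1. They were 1587 higher and 1534 lower at an adjusted p under 0.01, and 1469 and 1650 with 1.5-fold required. Orc3 turned to -0.024 with library totals, -0.0538 with log2(TPM + 1), with and without the TPM minimum, and -0.0557 with log2(TPM + 0.1). Pold2 turned to -0.0375 with library totals and ran from -0.0509 to 0.206 without 1 library, and Pold3 from -0.133 to 0.0204. The causes of these changes were not tested. Same-numbered libraries did not deviate together (correlations of -0.01, -0.30 and -0.22). The deviations were taken from means of 3 libraries and sum to 0 within a group. These correlations therefore cannot decide whether the numbers pair the samples. With the replicate block 30 members were lower and 0 higher, with a median of -0.50, and 1987 genes were higher and 1993 lower. A repeat without 1 library assumes that the 2 libraries left vary like the others, and counts of 34 to 73 limit Orc1.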
